A study of Homo sapiens with 6 samples.

Results

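The oligoadenylate synthetase family of human cells was followed through the knockdown of RAB23, a small GTPase of the Rab family, by RNA sequencing of KYSE30 cells, an established line from an oesophageal squamous cell carcinoma. Members were taken by gene symbol from the deposited expression table. OAS1, OAS2, OAS3 and OASL each matched 1 row, giving 4 of the 58735 genes in the table, and all 4 passed the filter on low values. The cells had received the RAB23 siRNA si-RAB23-9, the RAB23 siRNA si-RAB23-1 or the control siRNA si-NC, each at 100 nM with the HiPerFect lipid reagent, and each group has 2 libraries. All 6 libraries thus come from 1 cell line that was transfected with siRNA duplexes, the controls included, and no untransfected cells were analysed here. The titles number the libraries of a group without saying that they came from separate cultures, so the p-values below reflect only how far these particular libraries differ, a spread that may be technical.

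OAS1, OAS2 and OAS3 are enzymes that bind double-stranded RNA and then join ATP molecules into 2′-5′-linked oligoadenylates, called 2-5A. 2-5A activates the ribonuclease RNase L, which cuts cellular and viral RNA. OASL has the fold of the family but makes no 2-5A, carries ubiquitin-like domains, and is known to assist the RNA sensor RIG-I. The genes are textbook targets of interferon, through the transcription factor complex ISGF3 or directly through interferon regulatory factors (IRFs), and epithelial cells express them at a low level without infection.

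OAS1, OAS3 and OAS2 stand in this order, all on the plus strand, in a cluster on chromosome 12 (GRCh38, chr12:112906777-113011723). OAS1 (ENSG00000089127) spans 112906777 to 112933222, OAS3 (ENSG00000111331) 112938352 to 112973249 and OAS2 (ENSG00000111335) 112978395 to 113011723. Gaps of 5129 bases between OAS1 and OAS3 and of 5145 bases between OAS3 and OAS2 separate them. OASL (ENSG00000135114, 121019111 to 121039242, minus strand) lies 8.01 Mb further along the chromosome. The antisense gene AC004551.1 (112907628 to 113017751) lies on the other strand over OAS3, OAS2 and all but the first part of OAS1, but shares exonic bases with OAS1 alone (92 bases), and it had between 2 and 7 reads per library. Strandedness is not given in the sources used here, so reads of these 92 bases cannot be assigned to one strand or the other.

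The promoters of OAS1 and OAS3 are shown because the interferon response acts there. They run from 250 bases before to 50 bases after the RefSeq start on GRCh38.p14, plus strand, at chr12:112906712-112907011 for OAS1 and chr12:112938224-112938523 for OAS3. Of the 4 members, 2 have a promoter in the RefSeq table used. Capitals mark GAAA repeats with 2 spacer bases (GAAANNGAAA, the core of the interferon-stimulated response element bound by ISGF3) or with 1 (GAAANGAAA).
OAS1: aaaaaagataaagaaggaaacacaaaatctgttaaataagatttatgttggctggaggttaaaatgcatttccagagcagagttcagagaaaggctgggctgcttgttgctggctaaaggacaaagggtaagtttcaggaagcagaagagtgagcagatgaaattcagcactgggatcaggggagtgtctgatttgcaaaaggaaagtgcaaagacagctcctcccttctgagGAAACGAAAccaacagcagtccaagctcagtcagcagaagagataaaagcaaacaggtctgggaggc
OAS3: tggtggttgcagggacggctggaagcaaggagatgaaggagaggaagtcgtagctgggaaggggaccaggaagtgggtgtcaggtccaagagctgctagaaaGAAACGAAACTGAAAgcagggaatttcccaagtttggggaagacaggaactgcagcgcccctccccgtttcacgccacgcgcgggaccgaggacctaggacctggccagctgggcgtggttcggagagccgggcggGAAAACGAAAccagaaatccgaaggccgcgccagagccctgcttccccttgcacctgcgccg
The OAS3 promoter holds GAAANNGAAA at -143 to -134 (GAAACTGAAA) and at -12 to -3 (GAAAACGAAA), counted from the base before the start as -1. A repeat with 1 spacer, GAAACGAAA at -148 to -140, overlaps the first of these. The OAS1 promoter holds no GAAANNGAAA and has the repeat with 1 spacer, GAAACGAAA, at -17 to -9. It also has TTCAGAGAA at -168 to -160, a match to TTCNNNGAA, the core of the gamma-activated sequence of interferon-responsive genes. Both strands were searched, and all these matches are on the plus strand. Among 35116 RefSeq promoters of the same length, 3.57% hold GAAANNGAAA, 3.12% hold GAAANGAAA and 7.66% hold TTCNNNGAA. The motif with 1 spacer was added to the search after both promoters had been read. These are matches of letters in a window, and no binding was measured.

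Values are FPKM, that is fragments per kilobase of gene scaled to library size. For each member the gene length equals all its annotated exonic bases, for instance 4947 for OAS1 and 3517 for OASL. It is not the length of the transcripts expressed here. Orders, ratios and shares between genes depend on these lengths, while FPKM ratios of 1 gene between groups do not. Differences in log2(FPKM + 1) depend on them in part, since the added 1 weighs more where the FPKM is low. The libraries held 17211025 to 24178125 reads recovered from the table, and 13576 to 13700 genes reached 1 FPKM in a library. RAB23 itself was at 1.18 and 1.27 FPKM with si-RAB23-9, 1.03 and 1.10 with si-RAB23-1, against 3.27 and 3.33 with si-NC. On the log2(FPKM + 1) scale it fell by 0.95 with si-RAB23-9 and by 1.06 with si-RAB23-1 relative to si-NC (limma adjusted p = 0.00392 and 0.00314). Of 12 squamous epithelial markers 10 reached 1 FPKM, all but KRT5 and PKP1, with a summed level of 438 to 441 FPKM with si-RAB23-9, 492 to 519 with si-RAB23-1 and 432 to 439 with si-NC. None of 8 leukocyte markers reached 1 FPKM in a library, and they summed to 0.530 to 0.745 FPKM with si-RAB23-9, 0.826 to 0.966 with si-RAB23-1 and 0.782 to 0.866 with si-NC. Of 3 plasmacytoid dendritic cell markers, CLEC4C and LILRA4 were at 0 in all 6 libraries and IL3RA reached 1 FPKM in at least 1, with sums of 0.264 to 0.681 FPKM with si-RAB23-9, 0.605 to 0.635 with si-RAB23-1 and 0.710 to 1.32 with si-NC. Of 6 fibroblast markers COL1A1 reached 1 FPKM (COL1A2, DCN and LUM were at 0), and of 3 endothelial markers CDH5 did, with sums of 3.69 to 3.92 and 2.73 to 3.16 FPKM with si-RAB23-9, 3.44 to 3.53 and 1.62 to 2.09 with si-RAB23-1, and 3.45 to 3.47 and 3.77 to 3.79 with si-NC. The part of these cell types in the results was not tested.

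With si-RAB23-9 all 4 OAS genes were higher than with si-NC. The 3 enzymes of the cluster rose most, OAS2 to 3.44 times, OAS1 to 2.64 times and OAS3 to 2.34 times the si-NC level. OASL rose to 1.42 times. With si-RAB23-1 no member was called higher, and OASL was called lower, at 0.803 times the si-NC level. These are levels in bulk RNA, in which fewer cells with a transcript and less of it per cell cannot be told apart.

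OAS1, the synthetase with a single catalytic unit, was at 32.7 and 30.7 FPKM with si-RAB23-9, at 10.8 and 11.8 with si-RAB23-1, against 11.8 and 12.2 with si-NC. Both si-RAB23-9 libraries lie far above the other 4, among which the si-RAB23-1 and si-NC values meet at 11.8. The means were 31.7 ± 1.44, 11.3 ± 0.703 and 12.0 ± 0.216 FPKM for si-RAB23-9, si-RAB23-1 and si-NC (SD, n = 2 each). The difference between si-RAB23-9 and si-NC was 1.33 on the log2 scale (SE 0.0562, 95% interval 1.19 to 1.47, limma adjusted p = 0.00129), which is the 13th largest increase among the 14352 genes tested. Between si-RAB23-1 and si-NC it was -0.08 (95% interval -0.216 to 0.0623, limma adjusted p = 0.403). Reads counted for OAS1 were 3057 and 2693 with si-RAB23-9, 888 and 1301 with si-RAB23-1, against 1399 and 1175 with si-NC. Of the 5124 different 50-base stretches in OAS1 exons 1.07% also occur in another gene, and none of these is another OAS gene.

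OAS2, with a pair of synthetase domains of which only the last is known to be catalytic, was the lowest of the family in every library. It was at 6.77 and 6.23 FPKM with si-RAB23-9, 1.65 and 1.93 with si-RAB23-1, against 1.74 and 2.04 with si-NC. The si-RAB23-9 libraries stand apart, while the ranges of si-RAB23-1 and si-NC overlap. OAS2 averaged 6.50 ± 0.384 FPKM with si-RAB23-9, 1.79 ± 0.201 with si-RAB23-1 and 1.89 ± 0.214 with si-NC (SD, n = 2 each). Its log2 difference was 1.38 for si-RAB23-9 minus si-NC (SE 0.0891, 95% interval 1.16 to 1.60, limma adjusted p = 0.00229). For a gene this low the added 1 FPKM holds the log2 difference down, and with 0.1 FPKM added instead it was 1.73. For si-RAB23-1 minus si-NC the difference was -0.05 (95% interval -0.272 to 0.17, limma adjusted p = 0.741), and its sign turned without si-NC replicate 2 (0.02) or without si-RAB23-1 replicate 1 (0.02). Read numbers were 801 and 692 with si-RAB23-9, 171 and 269 with si-RAB23-1, against 260 and 250 with si-NC, and no 50-base stretch of its exons occurs in another gene.

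OAS3, the largest of the synthetases and the one known for binding long double-stranded RNA, was at 24.4 and 23.5 FPKM with si-RAB23-9, at 8.81 and 8.77 with si-RAB23-1, against 10.7 and 9.81 with si-NC. The 3 groups do not overlap, with si-RAB23-9 on top and si-RAB23-1 lowest. OAS3 averaged 24.0 ± 0.587, 8.79 ± 0.0349 and 10.2 ± 0.596 FPKM in these groups, named in the same order (SD, n = 2 each). Relative to si-NC it rose by 1.15 on the log2 scale with si-RAB23-9 (95% interval 1.03 to 1.28, limma adjusted p = 0.00131). With si-RAB23-1 the difference from si-NC was -0.20 (95% interval -0.321 to -0.073), just short of the threshold (limma adjusted p = 0.0523). Of 12 other settings that keep all libraries, 5 called it lower. The limma adjusted p was 0.0276 when only genes of mean FPKM of at least 5 were tested. The smallest adjusted p was 0.00138, by voom, limma's weighted fit to reads, and the largest 0.118, by limma without the filter on low values. With any 1 library left out the difference ranged from -0.251 to -0.143. Behind these values are 3798 and 3446 reads with si-RAB23-9, 1205 and 1608 with si-RAB23-1, against 2098 and 1582 with si-NC. Of the 8287 different 50-base stretches in OAS3 exons 0.615% occur in another gene, none of them an OAS gene.

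OASL, the member without synthetase activity, was at 25.1 and 24.4 FPKM with si-RAB23-9, 13.7 and 14.3 with si-RAB23-1, against 17.9 and 17.0 with si-NC. Its groups do not overlap either, and si-NC lies between the RAB23 siRNAs. OASL averaged 24.8 ± 0.473 FPKM with si-RAB23-9, 14.0 ± 0.387 with si-RAB23-1 and 17.4 ± 0.611 with si-NC (SD, n = 2 each). It rose by 0.48 with si-RAB23-9 relative to si-NC (SE 0.0436, 95% interval 0.377 to 0.593, limma adjusted p = 0.00424), the 401st largest increase of all genes tested. With si-RAB23-1 it fell by 0.30 relative to si-NC (95% interval -0.405 to -0.19, limma adjusted p = 0.0125). That call was lost without si-NC replicate 1 (adjusted p = 0.0819) and without si-NC replicate 2 (adjusted p = 0.0586). The reads numbered 1668 and 1525 with si-RAB23-9, 799 and 1115 with si-RAB23-1, against 1499 and 1168 with si-NC, and no 50-base stretch of its exons occurs in another gene.

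**Figure D1:**
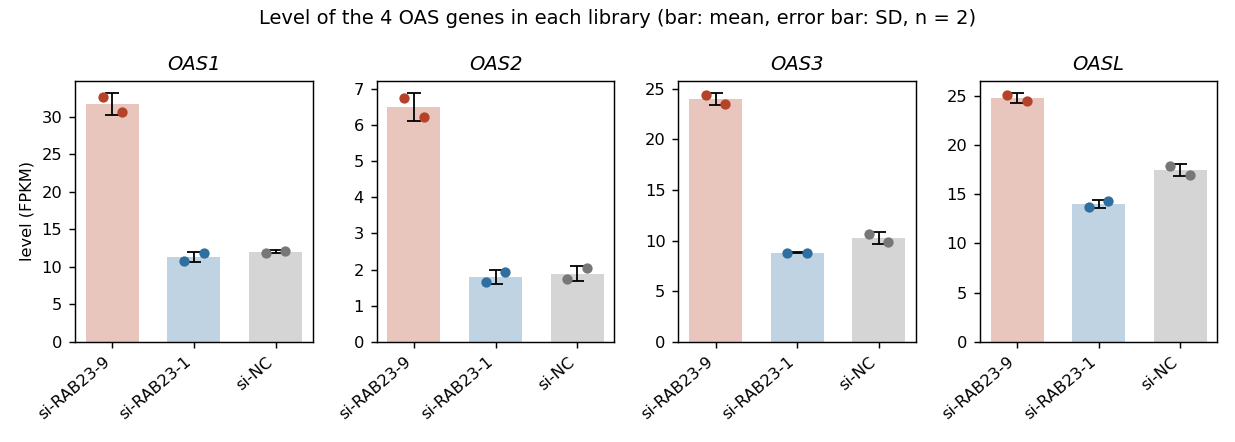
FPKM (vertical axis, linear) of OAS1, OAS2, OAS3 and OASL in each library, with si-RAB23-9, si-RAB23-1 and si-NC from left to right. Points are libraries, bars their mean and error bars the SD (n = 2). In every gene both si-RAB23-9 libraries are above the other 4, for instance 32.7 and 30.7 FPKM for OAS1 against 10.8 to 12.2.

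Of the 4 members, 4 were called higher relative to si-NC with si-RAB23-9, and 0 lower (limma, also 0 lower at an unadjusted p under 0.05 and by voom). Over all genes 7.56% were called higher and 5.69% lower. With si-RAB23-1, 0 were called higher and 1 lower, against 8.13% and 7.26% of all genes. At an unadjusted p under 0.05 the si-RAB23-1 counts were 0 and 2, and by voom 0 and 2, OAS3 joining OASL. The median log2 difference over all genes was 0.01 in both comparisons. Both comparisons use the same si-NC libraries, so their values are set side by side and not correlated. With any 1 library left out, the increase with si-RAB23-9 ranged over 1.29 to 1.38 for OAS1, 1.30 to 1.45 for OAS2, 1.10 to 1.21 for OAS3 and 0.451 to 0.519 for OASL, with adjusted p of at most 0.0439.

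The RAB23 siRNAs were also compared with each other. All 4 members were higher with si-RAB23-9 than with si-RAB23-1, against 11.1% of all genes, and none was lower, against 9.89% of all genes (limma, also 0 lower at an unadjusted p under 0.05 and by voom). OAS2 was 3.63 times as high (log2 difference 1.43, 95% interval 1.21 to 1.65, limma adjusted p = 0.00133) and OAS1 2.80 times (1.41, 95% interval 1.27 to 1.55, limma adjusted p = 0.000989). OAS3 was 2.72 times as high (1.35, 95% interval 1.23 to 1.47, limma adjusted p = 0.000989) and OASL 1.77 times (0.78, 95% interval 0.674 to 0.89, limma adjusted p = 0.0013). RAB23 itself differed between the same siRNAs by 0.11, short of the threshold (limma adjusted p = 0.383). Part of the OASL difference is its lower value with si-RAB23-1, since it lies 0.48 above si-NC with one siRNA and 0.30 below it with the other.

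**Figure D2:**
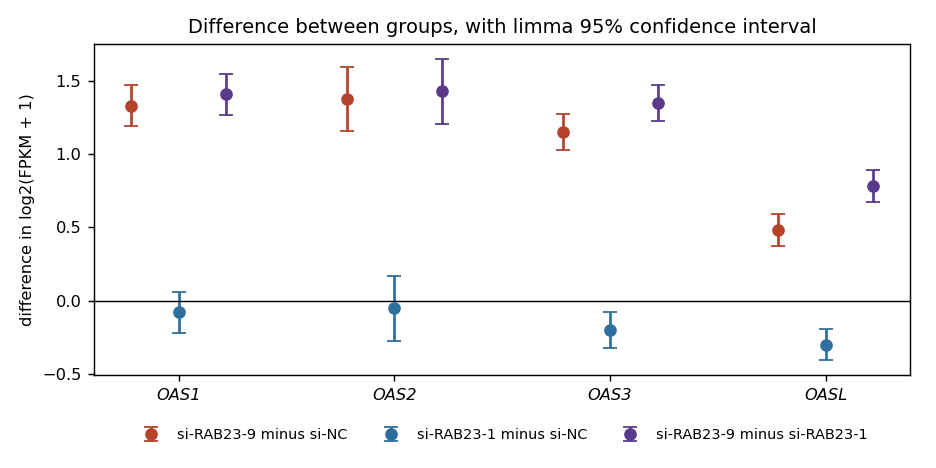
Differences in log2(FPKM + 1) of the 4 OAS genes with 95% intervals from limma. Colours set apart each RAB23 siRNA against si-NC and the RAB23 siRNAs against each other. OAS1, OAS2 and OAS3 lie between 1.15 and 1.38 with si-RAB23-9 and between -0.20 and -0.05 with si-RAB23-1, both against si-NC, and OASL lies at 0.48 and -0.30.

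The order of the members by level was not the same in all groups. With si-RAB23-9 it was OAS1, OASL, OAS3 and OAS2, and OASL and OAS3 differed by 0.819 FPKM in their means, with ranges only 0.0694 FPKM apart, which is within the spread of the libraries. With si-RAB23-1 and with si-NC it was OASL, OAS1, OAS3 and OAS2. There all neighbours were apart by more than their spread, the closest being OAS1 and OAS3, with 1.19 FPKM between their ranges with si-NC. OAS1 was 1.30 and 1.26 times the level of OASL in the si-RAB23-9 libraries, 0.790 and 0.830 times in the si-RAB23-1 libraries and 0.664 and 0.715 times in the si-NC libraries. Among all genes tested, OAS1 stood at the 90.2 percentile of level with si-RAB23-9 and at 72.1 with si-NC. OAS2 stood at 55.0 with si-RAB23-9 and at 21.4 with si-NC.

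Summed over the family, the level was 89.0 and 84.9 FPKM with si-RAB23-9, 35.0 and 36.8 with si-RAB23-1, against 42.1 and 41.0 with si-NC. OASL made up 28.5 ± 0.401% of this sum with si-RAB23-9, 39.0 ± 0.285% with si-RAB23-1 and 41.9 ± 0.687% with si-NC (SD, n = 2 each). OAS1 made up 36.5 ± 0.445% with si-RAB23-9, 31.6 ± 0.855% with si-RAB23-1 and 28.9 ± 1.06% with si-NC. The share of OAS3 was 27.6 ± 0.239%, 24.5 ± 0.954% and 24.6 ± 0.974%, and that of OAS2 7.47 ± 0.194%, 4.98 ± 0.385% and 4.56 ± 0.601%, for the same groups. By FPKM, the 2-5A-forming members were thus the larger part of the summed level in every library, and their part was larger with si-RAB23-9. The size of each part depends on the gene lengths used.

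**Figure D3:**
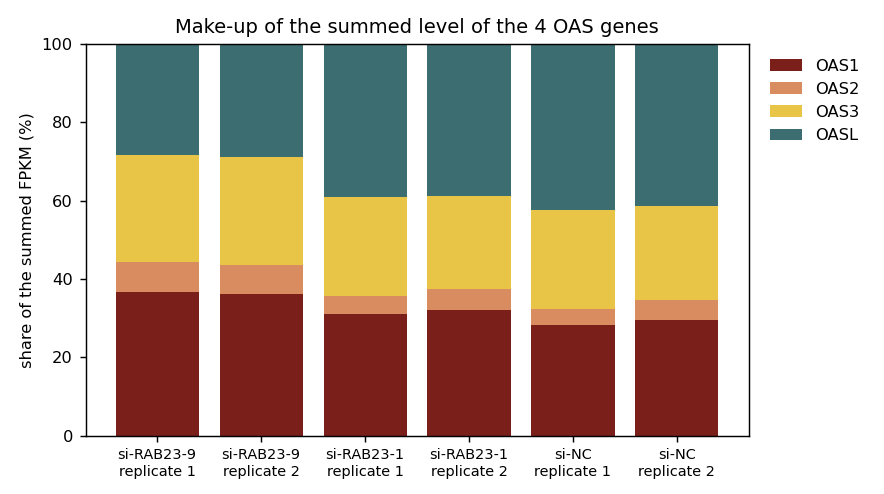
Share of the summed FPKM of the 4 OAS genes (vertical axis, percent) in each of the 6 libraries, stacked by gene, with si-RAB23-9 on the left, then si-RAB23-1 and si-NC. The OASL share averages 28.5% with si-RAB23-9 and 41.9% with si-NC.

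Within the family, likeness over the 6 libraries was measured as the root mean square difference of log2 values, each gene centred on its own si-NC mean. OAS1 and OAS2 were closest (0.0467), followed by OAS1 and OAS3 (0.136) and OAS2 and OAS3 (0.178). OASL was further from the others, at 0.391 from OAS3, 0.506 from OAS1 and 0.539 from OAS2. The measure follows both the siRNA differences and the spread of libraries, and it describes these 6 libraries only. Its order depends on the added 1 FPKM. With 0.1 FPKM added, OAS1 and OAS3 were closest (0.139), then OAS1 and OAS2 (0.204) and OAS2 and OAS3 (0.329), and OASL stayed furthest (0.417 to 0.728).

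Among the other genes tested, LAMP3, IFIT1, HELZ2 and IFI44L were among the 5 nearest to OAS1, to OAS2 and to OAS3. These distances also depend on the added 1 FPKM, which holds down the differences of low genes. IFI44L was at 1.45 and 1.42 FPKM with si-RAB23-9 against 0.200 and 0.200 with si-NC, 7.16 times as high in the means. LAMP3, a lysosomal membrane protein gene of mature dendritic cells, lay at 0.186 from OAS1, 0.227 from OAS2 and nearer to OAS3 than any other gene outside the family. It was at 8.45 and 8.18 FPKM with si-RAB23-9, 3.15 and 3.37 with si-RAB23-1, against 3.92 and 3.18 with si-NC. IFIT1, an interferon-induced protein that binds foreign RNA ends, lay at 0.189 from OAS1, 0.211 from OAS2 and 0.177 from OAS3. HELZ2, a helicase gene, lay at 0.196, 0.228 and 0.157 from the same genes. The microRNA gene MIR760 was nearest to OAS1 and OAS2 (0.168 and 0.169), on 2 and 3 reads with si-RAB23-9 and 0 in all other libraries. The nearest to OAS3 also included DDX58 (0.187), which encodes RIG-I. The genes nearest to OASL were SAPCD2 (0.0538), TMEM8A (0.0617), PARM1 (0.0792), BCL7B (0.0793) and NUDT8 (0.0839), none of which is in the interferon lists used here. PARM1 is also low, with means 2.23 times the si-NC mean with si-RAB23-9 and 0.556 times with si-RAB23-1. For OASL these ratios were 1.42 and 0.803. For SAPCD2, TMEM8A and BCL7B the log2 differences from si-NC were 0.41, 0.40 and 0.38 with si-RAB23-9. With si-RAB23-1 they were -0.26, -0.29 and -0.37. Each of these 6 calls was lost without either si-NC replicate or without others, except that SAPCD2 with si-RAB23-9 kept its call without si-NC replicate 1 (adjusted p of the lost calls 0.0583 to 0.161). The calls of MIR760 and IFI44L with si-RAB23-9 were lost with any single si-RAB23-9 or si-NC library left out (adjusted p 0.0556 to 0.109), while those of LAMP3, IFIT1, HELZ2 and DDX58 held.

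Genes near the OAS genes on chromosome 12 were also read out. Within 500000 bases of the cluster 10 of 26 other genes were tested, with log2 differences between -0.34 and 0.27 and a median of 0.01 for si-RAB23-9 minus si-NC. Limma called 1 of them higher, against 7.56% of all genes: PTPN11, which encodes the phosphatase SHP2, at 0.27 (limma adjusted p = 0.0206). Its value with si-RAB23-1 was 0.26 (limma adjusted p = 0.0217). Both calls were lost when 1 of several libraries was left out, every si-NC library included (adjusted p 0.0532 to 0.118). Around OASL 13 of 38 other genes were tested, with log2 differences between -0.26 and 0.41 and a median of 0.08 for si-RAB23-9 minus si-NC, beside 0.48 for OASL. Limma called 1 of them higher and 1 lower, against 7.56% and 5.69% of all genes. KDM2B, a histone demethylase gene, was higher by 0.41, a call lost with any single si-RAB23-9 or si-NC library left out (adjusted p 0.0843 to 0.11).

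**Figure D4:**
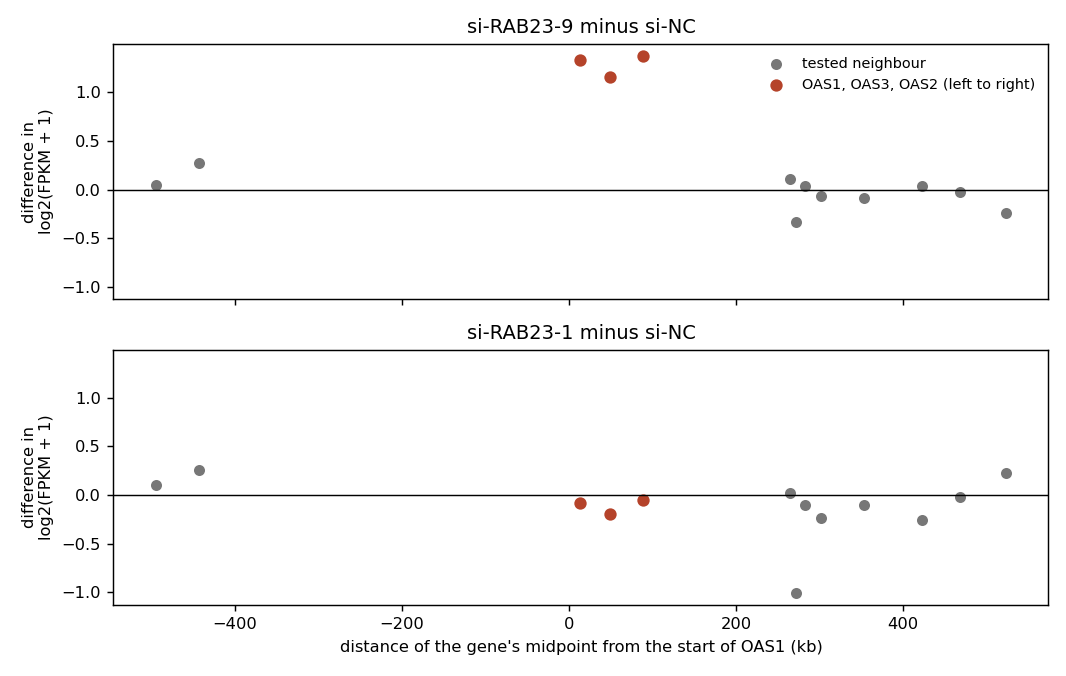
Log2 differences from si-NC of the tested genes within 500000 bases of the cluster of OAS1, OAS3 and OAS2 (vertical axis), by distance from the start of OAS1 in kb (horizontal axis), for si-RAB23-9 above and si-RAB23-1 below. OAS1, OAS3 and OAS2 stand at 1.15 to 1.38 with si-RAB23-9, and the grey neighbours between -0.34 and 0.27. The neighbour at -1.01 with si-RAB23-1 is a copy of the small RNA gene RF00019, on 2 to 17 reads per library.

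The other tested components of the 2-5A pathway were not called by limma. Of 3 tested genes that act on 2-5A or on the nuclease it activates, limma called 0 with si-RAB23-9 or si-RAB23-1 against si-NC, 0 also passed at an unadjusted p under 0.05, and voom called 0. At an unadjusted p under 0.05 voom had 1 or 2 of them lower with si-RAB23-9, depending on the scaling. Between si-RAB23-9 and si-RAB23-1 limma called 0 of the 3 and both voom fits called 1 lower, and 1 was also lower in limma before adjustment at 0.05. ABCE1, which encodes an inhibitor of RNase L that is also a ribosome recycling factor, was at 13.7 and 13.2 FPKM with si-RAB23-9, 15.8 and 14.7 with si-RAB23-1, against 14.1 and 15.0 with si-NC. PDE12, the gene of a phosphodiesterase that degrades 2-5A, was at 3.29 and 3.28 FPKM with si-RAB23-9, 3.62 and 3.57 with si-RAB23-1, against 3.35 and 3.53 with si-NC. Their log2 differences from si-NC were -0.10 and -0.05 with si-RAB23-9 (95% intervals -0.237 to 0.0322 and -0.186 to 0.0821) and 0.06 and 0.05 with si-RAB23-1. The values of the other tested gene are not reported here. Over the 3 genes the median was -0.10 with si-RAB23-9, with 0 of them above 0. With si-RAB23-1 it was 0.05, with 2 above 0.

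Among other proteins that bind or sense double-stranded RNA, 5 of 11 tested genes rose with si-RAB23-9 and the other 6 were not called, with a median of 0.13. The share called higher over all genes was 7.56%. DDX58 rose by 0.85 (18.5 and 17.3 FPKM with si-RAB23-9 against 9.28 and 9.73 with si-NC, limma adjusted p = 0.00191) and IFIH1, the gene of the sensor MDA5, by 0.61 (9.53 and 9.27 against 6.09 and 5.58, limma adjusted p = 0.00392). ADAR, which edits adenosines in such RNA, rose by 0.43. These 3 calls held with any 1 library left out. DHX58 (0.52), which encodes the regulator LGP2, and EIF2AK2 (0.51), which encodes the kinase PKR, also rose. DHX58 lost its call without any 1 of the 6 libraries (adjusted p 0.0575 to 0.2) and EIF2AK2 without either si-NC replicate or si-RAB23-9 replicate 1 (0.057 to 0.0668). With si-RAB23-1 limma called 1 of the 11 lower, beside 7.26% of all genes. It was STAU1 (-0.16), an RNA transport factor gene, whose call was lost without any 1 library (0.0578 to 0.168). DDX58 and IFIH1 were at -0.13 and 0.04 with si-RAB23-1.

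Interferon genes themselves were close to silent. Of 20 type I and III interferon genes 6 had any read and 1 could be tested, IFNL1, a type III interferon. IFNL1 had 28 and 22 reads with si-RAB23-9, 5 and 6 with si-RAB23-1, against 10 and 11 with si-NC. These are 1.73 and 1.45 FPKM with si-RAB23-9, 0.352 and 0.315 with si-RAB23-1, against 0.489 and 0.657 with si-NC. It rose by 0.72 with si-RAB23-9 relative to si-NC (limma adjusted p = 0.0317), a call lost with any single si-RAB23-9 or si-NC library left out (0.107 to 0.167). The call also ended with 0.1 FPKM added (0.0631), without the filter (0.0621), with quantile normalization (0.0604) and with the replicate block (0.0602).

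Of 10 tested interferon receptor, kinase and ISGF3 genes, 3 rose with si-RAB23-9 and the other 7 were not called, with a median of 0.20. The share called higher over all genes was 7.56%. Of the 3 calls, 1 held with any 1 library left out. IRF9 and STAT2, subunits of ISGF3, did not pass, at 0.41 (limma adjusted p = 0.13) and 0.12 (limma adjusted p = 0.126), and STAT2 was named after its values were seen. IFNGR1 and IFNGR2, the receptor chains of interferon gamma, rose by 0.28 and 0.27, and both calls were lost with any single si-RAB23-9 or si-NC library left out (adjusted p 0.0886 to 0.138). With si-RAB23-1, limma called 2 of the 10, both lower, the receptor gene IFNAR1 (-0.25) and the kinase gene JAK1 (-0.16), neither of which kept its call without either si-NC replicate (adjusted p over the libraries that decide it 0.0521 to 0.185). Of 12 adaptor, kinase and IRF genes 2 rose with si-RAB23-9, against 7.56% of all genes. They were TRAF3 (0.55, held with any 1 library left out) and MYD88 (0.37, lost with any single si-RAB23-9 or si-NC library left out). Over all genes 8.13% were called higher and 7.26% lower with si-RAB23-1. With si-RAB23-1, MAVS (0.18) and TICAM1 (0.21) rose and IKBKE (-0.28) and IRF2 (-0.23) fell in that list, and all 4 calls were lost without either si-NC replicate (adjusted p over the libraries that decide them 0.0516 to 0.2).

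Among 8 feedback inhibitors of the interferon response, 3 rose with si-RAB23-9, against 7.56% of all genes, and the other 5 were not called. USP18, a protease that removes ISG15 and restrains the type I receptor, rose by 1.00, at 10.8 and 11.6 FPKM with si-RAB23-9 against 5.47 and 4.71 with si-NC, and ISG15 rose by 0.86. Both held with any 1 library left out, while TRIM21 (0.45) was lost with any single si-RAB23-9 or si-NC library left out (adjusted p 0.0529 to 0.139). With si-RAB23-1, limma called 1 of the 8 lower, beside 7.26% of all genes. This was SOCS1, an inhibitor of JAK kinases, which fell by 0.91 (limma adjusted p = 0.00496). SOCS1, named after its values were seen, was at 3.54 and 3.70 FPKM with si-RAB23-9, 1.48 and 1.70 with si-RAB23-1, against 4.20 and 3.53 with si-NC.

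Most members moved in the list of other interferon-stimulated genes, of which 31 of 40 tested rose with si-RAB23-9 and 1 fell, with a median of 0.59. Over all genes 7.56% rose and 5.69% fell. Of the 31, 15 kept their call with any 1 library left out, and the count was 18 without either si-NC replicate or either si-RAB23-9 replicate. BST2, which encodes the virus-tethering membrane protein tetherin, rose by 1.82, IFI6 by 1.74, IFITM1 by 1.70 and IFI44 by 1.27. IFITM1 overlaps IFITM2, so reads of the pair cannot be assigned with certainty. The gene that fell was B2M, the light chain of MHC class I, by 0.54, at 46.8 and 45.8 FPKM with si-RAB23-9 against 69.2 and 66.1 with si-NC, and it was named after its values were seen. With si-RAB23-1, 6 of 40 rose, against 8.13% of all genes, and the other 34 were not called, with a median of 0.08. The largest were IFITM3 (0.38) and IFI44 (0.34), both chosen after their values were seen for this siRNA. None of the 6 kept its call with every library left out in turn, and the count was 1 with si-NC replicate 1 left out and 0 without si-NC replicate 2. Between the RAB23 siRNAs 32 of 40 were higher and 1 lower with si-RAB23-9, with a median of 0.48, and the higher count was 18 with si-RAB23-9 replicate 1 left out and 21 with si-RAB23-9 replicate 2 left out. In that comparison 11.1% of all genes were called higher and 9.89% lower with si-RAB23-9. The OAS increases with si-RAB23-9 against si-NC, at 0.48 to 1.38, thus lie among those of the listed genes. With si-RAB23-1 the OAS genes were at -0.30 to -0.05 beside a list median of 0.08.

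**Figure D5:**
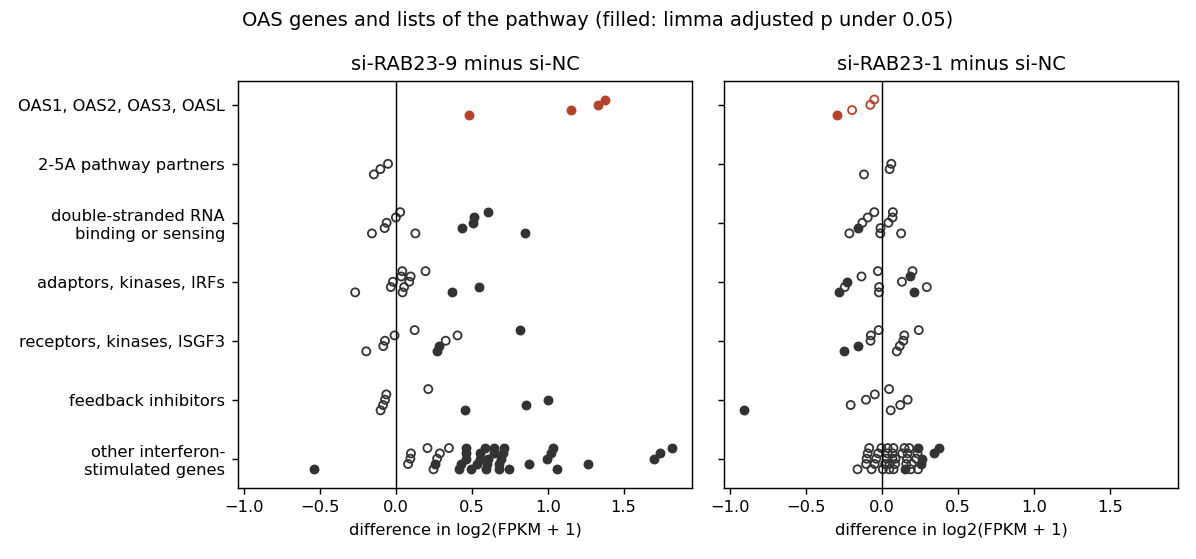
Differences in log2(FPKM + 1) from si-NC (horizontal axis) of the 4 OAS genes and of each tested gene of 6 lists, for si-RAB23-9 on the left and si-RAB23-1 on the right, with filled points where the limma adjusted p was under 0.05. With si-RAB23-9 the OAS genes lie at 0.48 to 1.38 and 31 of 40 other interferon-stimulated genes are called higher. The tested 2-5A pathway partners have a median of -0.10 there.

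The promoter letters set out above were also searched for in these lists. Of 27305 genes with a promoter in the RefSeq table, 7.83% hold a GAAA repeat with 1 or 2 spacer bases in at least 1 promoter. Among the other interferon-stimulated genes 35 of 42 did (83.3%), among feedback inhibitors 3 of 6, among double-stranded RNA binding or sensing genes 3 of 8, among the interferon genes themselves 6 of 17 (35.3%) and among adaptors, kinases and IRFs 1 of 8. The receptor, kinase and ISGF3 list had 0 of 10, the 2-5A partners 0 of 3 and the nucleotidyltransferase relatives of the synthetases 0 of 6. The form with 1 spacer base was added after the OAS1 and OAS3 promoters had been read. With 2 spacer bases alone, 1195 of the 27305 genes had a match. So did 30 of the 42 other interferon-stimulated genes and 5 of the 17 interferon genes. A promoter without a match lacks only these letters in this window.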

How the data were processed

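Total RNA of 6 KYSE30 libraries had been sequenced, and the authors deposited FPKM per gene (gene length and library size scaled), which were used as deposited. Per the submitters' processing notes, which give no role or order, the tools were STAR 2.5.1b, RSEM 1.2.29, edgeR 3.8.5, Trimmomatic 0.36 and FastQC, and the build hg19. Start and end of all 58735 genes equal GENCODE release 29 on GRCh38, so coordinates are GRCh38. FPKM times gene length came out as whole reads within 0.01 for 100% of the values, which gave the reads and depths quoted. RSEM would normally give fractional estimates.

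Groups follow the sample titles. Limma 3.58.1 (R 4.3.3) fitted 1 mean per group to log2(FPKM + 1) of all 6 libraries, with trended eBayes and 3 residual degrees of freedom. Tests were two-sided and Benjamini-Hochberg adjusted over 14352 genes reaching 1 FPKM in at least 2 libraries, and a gene was called at an adjusted p under 0.05. The script was checked on simulated data. The log2(FPKM + 1) scale understates changes of low genes. FPKM is not a count, so no count model was used, and voom on the recovered reads was an alternative.

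The members and all gene lists were chosen with earlier results of these data known, and lists were described by counts and medians without a set test. Named were the members, their 5 nearest genes, tested neighbours within 500000 bases, and up to 6 genes per list of largest difference with si-RAB23-9. A total of 18 alternatives were tried: 6 that leave out a library and 12 others (pseudocount, filter, scaling, variance model, samples fitted, replicate block, voom). Replicate numbers were not taken to pair libraries. Promoters are RefSeq, GRCh38.p14. Some genes that passed are not reported here by name.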

Additional observations from a re-analysis of the deposited data

Results flagged for a closer look

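The effects of the RAB23 siRNAs on the OAS genes differed from each other, by the direct limma test of si-RAB23-9 minus si-RAB23-1 in the fit across all genes. The log2 difference was 1.41 for OAS1, 1.43 for OAS2, 1.35 for OAS3 and 0.78 for OASL, with adjusted p of 0.000989, 0.00133, 0.000989 and 0.0013. Both si-RAB23-9 libraries were above both si-RAB23-1 libraries for each gene. RAB23 transcript differed by 0.11 between the same siRNAs (limma adjusted p = 0.383). What sets the siRNAs apart was not tested.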

How the results depend on the processing

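All 4 members were called higher with si-RAB23-9 than with si-NC and than with si-RAB23-1 under each of the 18 alternatives, except that OAS2 falls out of the test with a mean FPKM of at least 5 (there 3 of the 3 tested were called). Leaving out 1 library gave 4 to 4 higher and 0 to 0 lower members in both comparisons, and for si-RAB23-1 minus si-NC 0 to 0 higher and 0 to 1 lower. In that comparison 2 members were called lower with mean FPKM of at least 5, median-of-ratios scaling, robust eBayes and both voom fits, and the OAS2 difference ranged from -0.127 to 0.0248 with 1 library left out (0.0248 without si-NC replicate 2, and 0.0225 with si-RAB23-1 replicate 1 removed). The cause was not tested. With the replicate number as a block no member call changed (si-RAB23-9 minus si-NC: 4 higher, limma adjusted p 0.009, 0.009, 0.00726 and 0.0135 for OAS1, OAS2, OAS3 and OASL). Replicate differences of same-numbered libraries were hardly correlated across genes (-0.0562, -0.0158 and 0.0610). The titles do not say whether such libraries shared a culture or preparation, and these correlations cannot tell. Over all genes the counts moved more. For si-RAB23-9 minus si-NC, 1085 higher and 817 lower became 552 and 431 without a filter, 1872 and 1536 by voom with library totals, 1802 and 1605 by voom with median-of-ratios factors, and 719 higher without a trend. For si-RAB23-1 minus si-NC, 1167 and 1042 became 543 and 506 without a filter, 633 and 601 with only the 2 groups fitted, 744 higher without a trend, 2178 lower by voom with library totals, and 1879 and 1915 by voom with median-of-ratios factors. For si-RAB23-9 minus si-RAB23-1, 1599 and 1420 became 771 and 687 without a filter, 1036 and 883 with only the 2 groups fitted, and 2695 higher by voom with library totals. With 1 library left out they ranged over 143 to 1173 higher and 115 to 902 lower, 173 to 954 and 165 to 866, and 375 to 1376 and 330 to 1315, in the same order of comparisons. Other named calls that ended under settings keeping all libraries (adjusted p up to 0.103, or 0.214 for MIR760) were, against si-NC, DHX58, IFNGR1, TRIM21, CGAS, IFI44L, MIR760, KDM2B, PTPN11 and TMEM8A with si-RAB23-9, and STAU1, MAVS, TICAM1, IKBKE, IRF2, IFNAR1, JAK1, PTPN11, SAPCD2 and TMEM8A with si-RAB23-1. With 2 libraries a group the spread rests on 3 degrees of freedom. Each member had at least 171 reads in a library.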

Other observations

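Enzymes that share the nucleotidyltransferase fold of the synthetases were described as relatives of the family. Of 7 tested, 2 rose with si-RAB23-9 relative to si-NC and the other 5 were not called, with a median log2 difference of 0.03. The share called higher over all genes was 7.56%. CGAS, which encodes the DNA sensor that makes the cyclic dinucleotide cGAMP, was at 9.61 and 9.39 FPKM with si-RAB23-9 against 8.27 and 8.05 with si-NC (0.20, limma adjusted p = 0.0353). TENT4A, which encodes an RNA-tailing polymerase, was at 8.30 and 8.36 against 6.06 and 6.10 FPKM (0.40, limma adjusted p = 0.00633). Both calls were lost with any single si-RAB23-9 or si-NC library left out (adjusted p 0.0546 to 0.18). With si-RAB23-1 limma called 1 of the 7 lower, beside 7.26% of all genes. MB21D2 fell by 0.52 relative to si-NC, at 5.66 and 5.98 FPKM against 8.68 and 8.93. Its call held with any 1 library left out.

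Of the 48 other interferon-stimulated genes, 8 were too low to test. Only 4 of these 8 are described here, and they were chosen for mention after their values were seen. MX1, the gene of a dynamin-like GTPase that is commonly read beside OAS1 as a sign of interferon, was at 0.111 and 0.131 FPKM with si-RAB23-9, 0.0841 and 0.131 with si-RAB23-1, against 0.102 and 0.0653 with si-NC, on 11 to 25 reads per library. RSAD2, the gene of viperin, was at 0.548 and 0.548 FPKM with si-RAB23-9, 0.450 and 0.363 with si-RAB23-1, against 0.451 and 0.423 with si-NC. MX2 was at 0.166 and 0.0907, 0.00925 and 0.0345, and 0.00321 and 0.0314 FPKM in the same groups, and XAF1 at 0.376 and 0.400, 0.1 and 0.129, and 0.0760 and 0.0928. The si-RAB23-9 values lie above those of si-NC for each of these 4 chosen genes, none of which passed the filter on low values. The direction of the rest of the 8 is not reported here.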
